A study of Mus musculus with 2 samples.

Results

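The 10 heat shock chaperone genes described here were taken as a named list, out of 32285 genes counted in each library: Hspa1a, Hspa1b, Dnajb1, Hsph1, Hsp90aa1, Dnaja1, Hspa8, Hsp90ab1, Hspd1 and Hspe1. They were read in 2 single-cell libraries of CD45+ immune cells, sorted from the digested retinal pigment epithelium and choroid of mouse eyes, with 1 library per group. The first group carried the genotype IL-17RA CKO and the second IL-17ra fl, and both had received sodium iodate (NaIO3), an oxidant toxic to the retinal pigment epithelium, by intraperitoneal injection at 20 mg per kg. Here they are called the CKO and the flox library. The labels give neither the Cre driver, the age, the time after injection, the number of pooled animals nor an uninjected control.

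Chaperones bind unfolded or partly folded proteins and help them fold, and most cells hold large amounts of the constitutive forms. When misfolded proteins build up, heat shock factor 1 (HSF1) binds arrays of inverted GAA units in promoters and switches on the inducible forms, above all the HSP70 genes Hspa1a and Hspa1b. In freshly isolated cells these genes, like the immediate early genes, are also known to respond to enzymatic digestion and sorting.

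Cells were barcodes with at least 1000 UMIs (unique molecular identifiers, each a counted transcript) and less than 10% mitochondrial UMIs, which left 3982 cells in the CKO and 3420 in the flox library, with medians of 7714 and 8742 UMIs. Each gate is a set of cells defined by UMIs of 1 or 2 marker genes. The CKO and flox libraries held 1007 and 632 cells in the B gate, 1663 and 1378 in the T gate, and 276 and 211 in the NK (natural killer) gate. The myeloid gates held 312 CKO and 416 flox classical monocytes, 523 CKO and 545 flox nonclassical monocytes, 64 CKO and 97 flox cDC1 and 150 CKO and 203 flox cDC2, where cDC1 and cDC2 are the conventional dendritic cells of types 1 and 2. With the genes that define the gates left out, the 3 or 4 markers that remained on each gate's list summed to the highest CPM in that gate in both libraries. For the cDC2 gate the margin was small, with Mgl2, Irf4 and Flt3 at 274 CPM in the CKO and 294 CPM in the flox library, against 255 CPM in the CKO and 223 CPM in the flox library in the next gate. Gates overlapped, with 7.03% of CKO and 8.68% of flox cells in 2 or more of them, and the libraries shared 3 barcodes. Both libraries mixed sexes: 39.3% of CKO and 65.7% of flox cells had female transcripts only, and 34.6% of CKO and 15.7% of flox cells had Y-linked transcripts only. Il17ra, which encodes the targeted receptor, stood at 123 CPM in the CKO and 132 CPM in the flox library (CPM are the UMIs of a gene per 1000000 UMIs), and its 3' reads check a deletion only where they fall inside the deleted part.

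With 1 library per group there is no replicate error, so the libraries were compared without tests or p-values. Each level is a CPM over the summed UMIs of a gate, and each CKO over flox ratio has a 95% interval that covers counting error only. UMIs of 1 cell are not independent draws, so the spread between animals is unknown and is not covered. A gene was called higher or lower in a gate when the ratio reached 1.5-fold in that direction and the libraries together held 100 UMIs of it or more.

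Over all kept cells the inducible genes differed most between the libraries and the mitochondrial pair differed least. Hspa1a stood at 35.8 CPM in the CKO and 22.9 CPM in the flox library, a ratio of 1.56 (interval 1.43 to 1.71). Hspa1b stood at 38.0 CPM in CKO and 25.9 CPM in flox cells (ratio 1.47, interval 1.35 to 1.60). The co-chaperones Hsph1 and Dnajb1 had ratios of 1.35 and 1.33, the cytosolic Hsp90aa1 and Dnaja1 1.22 and 1.21, and the constitutive Hspa8 and Hsp90ab1 1.10 and 1.09. Hspe1 and Hspd1 had ratios of 1.03 and 1.02.

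Of the 70 combinations of a member and a gate, 65 had a ratio above 1, although 2 of these round to 1, and in 44 the whole interval lay above 1. The interval lay below 1 in 1 combination, Hspd1 in the NK gate. Over all genes that passed the UMI minimum in a gate, 48.3% to 56.7% had a ratio above 1. Of all genes that passed, 7.32% to 15.8% had an interval wholly above 1 and 7.48% to 15.2% an interval wholly below 1. An interval narrows as the UMIs of a gene rise, and these shares were not matched to the members for UMIs. In the T gate, for example, Hspa8 had 18923 UMIs in the CKO and 14192 in the flox library. Within female cells 55 of 70 combinations had a ratio above 1, and within male cells 53 of the 69 with a value. Only 59 combinations in female and 55 in male cells held 100 UMIs, and the smallest held 24 in female and 3 in male cells. The share of all genes above 1 was not taken within each sex, so these 2 counts are not read as a result about the members. With all cells of a gate, the UMI minimum was passed by 65 combinations, 8 of which were called higher in the CKO library and 0 lower. The calls were Hspa1a and Hspa1b in the T, nonclassical monocyte and cDC1 gates, Hspa1a in the cDC2 gate, and Dnajb1 in the NK gate. The combinations under the minimum were Hspa1a and Hspa1b in the B and NK gates and Hsph1 in the cDC1 gate.

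The counts of calls are read against all genes that passed the same minimum in the gate. The members were chosen with earlier results of these data known, so this comparison is descriptive and is not a test of the list. Among T-gate genes, 2 of 10 members were called higher, against 2.18% of all genes, and 0 lower, against 3.16%. In the nonclassical monocyte gate 2 of 10 were called higher, against 1.43%, and 0 lower, against 2.46%. In the cDC1 gate 2 of 9 were called higher, against 3.61%, and 0 lower, against 3.81%. In the cDC2 gate 1 of 10 was called higher, against 2.77%, and 0 lower, against 3.10%, and in the NK gate 1 of 8 was called higher, against 1.95%, and 0 lower, against 1.71%. No member was called in the B gate, where 1.46% of genes were called higher and 3.49% lower, or in the classical monocyte gate, where 2.40% were called higher and 2.84% lower.

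The members' median log2 ratio was 0.35 in the T gate, 0.30 in the nonclassical monocyte gate, 0.27 in the NK gate, 0.26 in the B gate, 0.19 in the cDC1 gate, 0.18 in the classical monocyte gate and 0.15 in the cDC2 gate. These medians take in members under the UMI minimum. Over only the members that passed it, the median was 0.21 in the B gate and 0.19 in the NK gate, and the same in the other gates. The median over all genes that passed the minimum lay between -0.01 and 0.03 in the 7 gates. Among the members, Hspa1a had the largest ratio in the T, NK, classical monocyte, cDC1 and cDC2 gates and Hspa1b in the B and nonclassical monocyte gates.

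**Figure D1:**
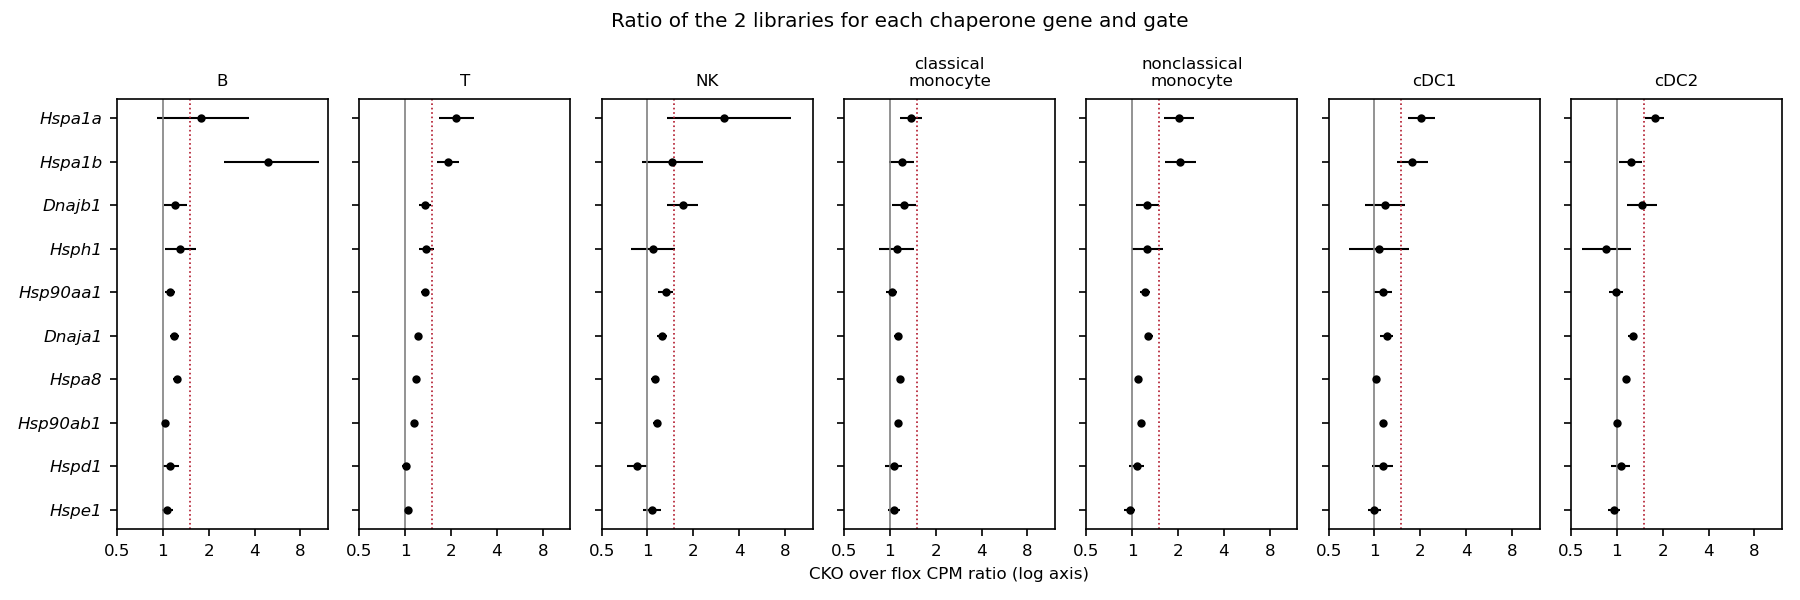
CKO over flox ratio of CPM (log axis) for each of the 10 genes, in 1 panel per gate. Points are ratios of summed UMIs, bars are 95% intervals for counting error, the grey line marks 1 and the dotted line 1.5. Hspa1a and Hspa1b lie furthest to the right in most panels, and Hspd1 and Hspe1 stay near 1.

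Hspa1a and Hspa1b encode the stress-inducible cytosolic HSP70 and lie next to each other on the minus strand of chromosome 17. On mm10, GENCODE vM21 places Hspa1a at chr17:34969190-34972156 and Hspa1b at chr17:34956436-34959238, each as a single exon with no intron. Their coding sequences are 99.4% identical, whereas their 3' untranslated regions are 51.1% identical and the last 300 bases of the transcripts 56.7%. The library reads the 3' end, where the genes can be told apart, but a read from the coding sequence could be assigned to either or discarded, so their sum is given where the split matters. Their promoters are shown because both genes were higher in the CKO library and share the letters HSF1 is known to bind. Each window runs from 250 bases before to 50 bases after the annotated start (RefSeq, GRCm38.p6), at chr17:34972107-34972406 for Hspa1a and chr17:34959189-34959488 for Hspa1b, both on the minus strand, 5′ to 3′. Capitals mark 2 inverted GAA units, searched on both strands as GAANNTTC or TTCNNGAA.
Hspa1a: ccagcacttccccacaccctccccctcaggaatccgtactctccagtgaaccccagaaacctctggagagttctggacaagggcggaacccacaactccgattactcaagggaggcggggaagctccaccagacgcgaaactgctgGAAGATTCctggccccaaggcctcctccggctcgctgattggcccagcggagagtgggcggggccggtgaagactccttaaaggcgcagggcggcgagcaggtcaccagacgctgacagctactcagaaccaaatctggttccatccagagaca
Hspa1b: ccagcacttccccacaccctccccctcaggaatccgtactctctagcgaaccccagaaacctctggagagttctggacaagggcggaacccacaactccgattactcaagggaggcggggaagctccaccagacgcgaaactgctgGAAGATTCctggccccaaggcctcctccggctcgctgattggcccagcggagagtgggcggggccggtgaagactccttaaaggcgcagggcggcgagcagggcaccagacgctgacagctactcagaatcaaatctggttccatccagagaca
The windows were identical at 296 of 300 bases and differed by C44T, T47C, T249G and C276T, counted from 1 at the 5′ end with the Hspa1a base first. In both, the match began 104 bases before the start. The search found GAANNTTC or TTCNNGAA in 15.1% of 32851 RefSeq promoter windows, so the match alone is common.

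T-gate cells gave Hspa1a 206 UMIs in the CKO and 84 in the flox library, or 14.1 CPM in the CKO and 6.55 CPM in the flox library. The ratio was 2.16 (interval 1.66 to 2.81). Hspa1b had 510 UMIs in CKO and 235 in flox T-gate cells, or 34.9 and 18.3 CPM, a ratio of 1.91 (interval 1.63 to 2.24). Both genes thus had intervals wholly above 1.5-fold in T cells. T-gate cells with Cd8a or Cd8b1 and no Cd4 UMI numbered 1032 in the CKO and 650 in the flox library, and in them the ratio was 3.56 for Hspa1a (interval 2.40 to 5.46) and 2.48 for Hspa1b (2.0 to 3.10). T-gate cells with Cd4 and no Cd8a or Cd8b1 UMI numbered 274 in the CKO and 336 in the flox library, with a ratio of 1.79 for Hspa1a (interval 1.01 to 3.20), while the Hspa1b ratio, 0.32 on the log2 scale, had an interval of 0.881 to 1.77. Among T-gate cells with neither, 338 in the CKO and 372 in the flox library, the summed pair stood at 26.0 CPM in CKO and 25.6 CPM in flox cells. This split of the T gate was chosen after the data had been seen.

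In the nonclassical monocyte gate, cells that patrol vessel walls, both genes were about equally shifted. Hspa1a stood at 37.0 CPM in CKO and 18.3 CPM in flox cells (ratio 2.02, interval 1.62 to 2.54). Hspa1b stood at 35.1 CPM in CKO and 17.0 CPM in flox cells (ratio 2.07, interval 1.64 to 2.61). In the classical monocyte gate the same pair stood closer together, with Hspa1a at 60.6 CPM in CKO and 44.0 CPM in flox cells (ratio 1.38, interval 1.17 to 1.63) and Hspa1b at 44.6 CPM in CKO and 37.1 CPM in flox cells (ratio 1.20, interval 0.995 to 1.45). Leaving out cells of more than 1 gate turned the Hspa1b log2 ratio in classical monocytes to -0.51, against 0.26 with them, and 59.9% of CKO and 53.6% of flox classical monocytes passed another gate. Summed over 5 marker genes of the retinal pigment epithelium, CKO classical monocytes held 116 CPM and flox classical monocytes 3.28 CPM, and the part of these cells or their RNA in the chaperone levels was not tested.

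The dendritic cell gates held the highest levels of the pair. In the cDC1 gate, cells specialised in cross-presentation, Hspa1a stood at 143 CPM in CKO and 70.4 CPM in flox cells (ratio 2.03, interval 1.65 to 2.51). Hspa1b stood there at 106 CPM in CKO and 59.7 CPM in flox cells (ratio 1.77, interval 1.40 to 2.25). In the cDC2 gate Hspa1a stood at 158 CPM in CKO and 89.1 CPM in flox cells (ratio 1.77, interval 1.53 to 2.05), and Hspa1b at 94.6 CPM in CKO and 76.3 CPM in flox cells (ratio 1.24, interval 1.04 to 1.47). Of cDC2-gate cells, 54.7% in the CKO and 50.2% in the flox library passed another gate; without them the log2 ratio was 1.45 for Hspa1a, against 0.82 with them, and 1.05 for Hspa1b, against 0.31 with them, and Hspa1b was then called higher. Neutrophil markers, summed over 4 genes, stood at 197 CPM in the CKO and 4.93 CPM in the flox cDC1 gate, with S100a8, S100a9 and Retnlg at 0 in flox cells; their part in the cDC1 ratios was not tested.

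The B and NK gates held few UMIs of the pair. B-gate cells had 35 UMIs of Hspa1a in the CKO and 13 in the flox library, and 74 of Hspa1b in the CKO and 10 in the flox library. A single CKO B-gate cell held 16 of those 74 Hspa1b UMIs. NK-gate cells had 26 UMIs of Hspa1a in the CKO and 7 in the flox library, and 1 cell held 85.7% of the flox UMIs. The NK ratio of Hspa1a, 3.20 with an interval of 1.35 to 8.73, therefore rests on few cells. Without the cell with the most Hspa1a UMIs in each library its log2 value was 3.68, against 1.68 with them.

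**Figure D2:**
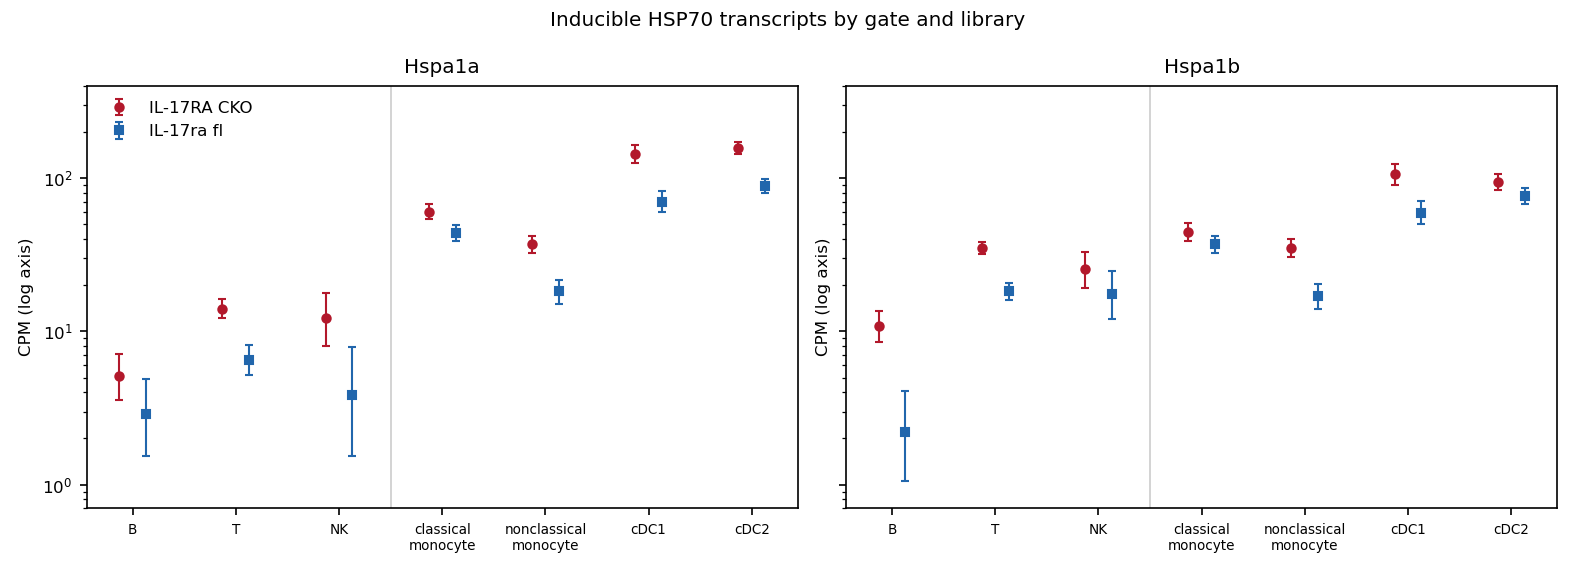
CPM (log axis) of Hspa1a and Hspa1b in the 7 gates, CKO library left of flox library in each pair. Points are CPM of summed UMIs, bars are 95% Poisson intervals, and the vertical line parts lymphoid from myeloid gates. Both genes are lowest in the B gate and highest in the dendritic cell gates, and the CKO point is the higher of each pair.

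Over the gates, Hspa1a followed 1 order in both libraries: cDC2, cDC1, classical monocyte, nonclassical monocyte, T, NK and B. The cDC2 gate stood 30.8-fold above the B gate in the CKO library (interval 21.8 to 44.9) and 31.0-fold in the flox library (17.9 to 58.8). The T and NK gates did not differ beyond counting error in either library, nor cDC2 and cDC1 in the CKO library, nor NK and B in the flox library. Every myeloid gate, at 37.0 to 158 CPM in the CKO and 18.3 to 89.1 CPM in the flox library, exceeded every lymphoid gate, at 5.11 to 14.1 CPM in the CKO and 2.88 to 6.55 CPM in the flox library. Hspa1b was also highest in dendritic cells and lowest in B cells, but flox T and NK cells, at 18.3 and 17.5 CPM, were close to flox nonclassical monocytes at 17.0 CPM.

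The balance of the 2 genes differed between lymphoid and myeloid gates. In the T gate Hspa1a gave 0.404 UMIs per Hspa1b UMI in CKO cells (interval 0.342 to 0.476) and 0.357 in flox cells (0.275 to 0.460). In the NK gate the ratio of Hspa1a to Hspa1b UMIs was 0.481 in CKO and 0.219 in flox cells. In classical monocytes it was 1.36 in CKO and 1.18 in flox cells, in nonclassical monocytes 1.06 in CKO and 1.08 in flox cells, and in the cDC1 gate 1.35 in CKO and 1.18 in flox cells. The cDC2 gate gave 1.67 in CKO cells (interval 1.42 to 1.95) and 1.17 in flox cells (0.994 to 1.37). The B gate gave 0.473 in CKO cells and 1.30 in flox cells, where the flox value came from 23 UMIs and had an interval of 0.527 to 3.31. These ratios compare counts of 2 genes whose 3' ends differ, so how well each is captured enters all of them alike, and only their differences between gates are read here.

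**Figure D3:**
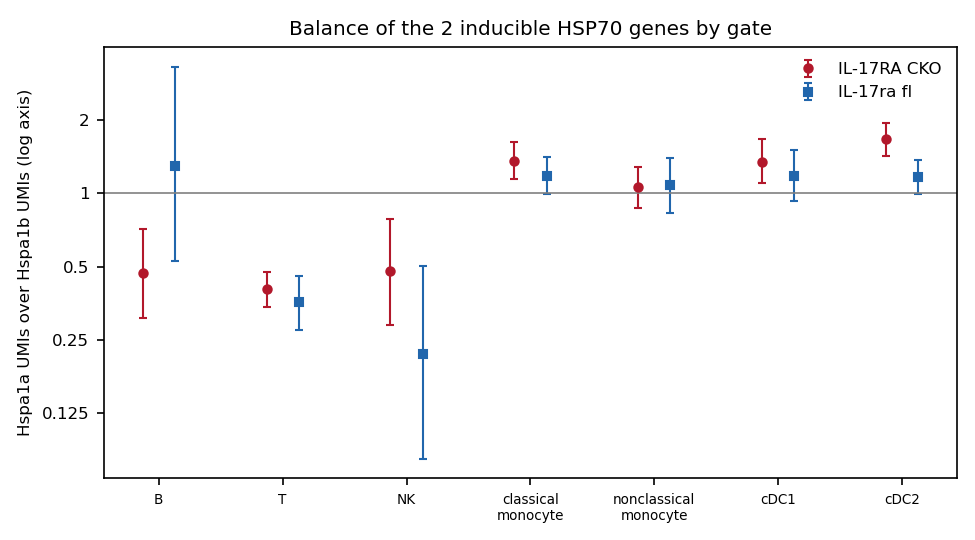
UMIs of Hspa1a over UMIs of Hspa1b (log axis) in the 7 gates, CKO library left of flox library in each pair, with 95% intervals for counting error. The points of the T and NK gates lie below 1 and those of the 4 myeloid gates above 1 in both libraries. The intervals take in 1 in every flox myeloid gate and in CKO nonclassical monocytes. The flox B gate rests on 23 UMIs.

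In the T gate 5.65% of CKO cells (interval 4.59% to 6.87%, Clopper-Pearson) and 2.83% of flox cells (2.02% to 3.85%) had a UMI of Hspa1a. For Hspa1b the T-gate shares were 13.8% of CKO and 7.33% of flox cells. In the cDC1 gate 45.3% of CKO and 24.7% of flox cells had a Hspa1a UMI, and in the cDC2 gate 36.7% of CKO and 24.6% of flox cells. In the B gate the share was 1.39% of CKO and 1.74% of flox cells, with medians of 6468 UMIs per CKO and 6196 per flox cell, beside 8007 per CKO and 8702 per flox cell in the T gate. Flox barcodes of 100 UMIs or fewer, the profile used for free RNA, carried 28.6 CPM of Hspa1a, and B-gate shares are not read as expression. Of the cDC2-gate UMIs of Hspa1a, the 5% of cells with the most held 55.1% in the CKO and 67.5% in the flox library, and single cells held as many as 50 UMIs in the CKO and 55 in the flox library. With each cell thinned to 1000 UMIs, the T-gate share with Hspa1a was 1.38% in the CKO (interval 0.879% to 2.07%) and 0.290% in the flox library (0.0791% to 0.742%). The thinned cDC2 share was 10.0% in the CKO and 3.94% in the flox library. In other gates the thinned shares were close. They were 9.38% of CKO and 8.25% of flox cells in the cDC1 gate. Classical monocytes gave 3.85% in the CKO and 3.37% in the flox library, and nonclassical monocytes 2.49% and 2.20%.

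Cells with a UMI of Hspa1a held Hspa1b more often than cells without one. With each cell thinned to 5000 UMIs, 51.7% of CKO T-gate cells with Hspa1a also had Hspa1b (30 of 58 cells, interval 38.2% to 65.0%), beside 8.35% of those without (6.91% to 9.98%). In flox T-gate cells the shares were 29.2% with Hspa1a (7 of 24 cells, interval 12.6% to 51.1%) and 5.21% without (4.0% to 6.65%). In the cDC2 gate 48.3% of CKO cells with Hspa1a and 14.3% without it had Hspa1b, beside 42.4% and 6.63% of flox cells. The part of reads assigned to the wrong gene of the pair in this overlap was not tested.

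Dnajb1 and Hsph1 are partners of HSP70 that are also inducible. Dnajb1 (mm10 chr8:83608193-83612653) encodes an HSP40 that hands clients to HSP70, and Hsph1 (chr5:149614287-149636376) encodes HSP105, a nucleotide exchange factor. Dnajb1 was highest in NK and T cells, at 100.2 and 86.5 CPM in the CKO and 59.0 and 63.7 CPM in the flox library. Its NK ratio of 1.70 (interval 1.34 to 2.16) came from 213 UMIs in CKO and 108 in flox cells and was its largest. Its ratio was 1.36 in the T gate (interval 1.24 to 1.48), 1.46 in the cDC2 gate (1.16 to 1.84) and between 1.18 and 1.26 in the 4 other gates. B markers, summed over 5 genes, stood at 98.8 CPM in the CKO and 4.92 CPM in the flox NK gate, and their part in the NK ratio was not tested; without cells of more than 1 gate its log2 value stayed at 0.76.

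Hsph1 was higher in every lymphoid gate, at 30.8 to 58.9 CPM in the CKO and 23.7 to 42.6 CPM in the flox library, than in any myeloid gate, at 18.4 to 26.3 CPM in the CKO and 19.0 to 22.4 CPM in the flox library. The margin between the lowest lymphoid and the highest myeloid gate was within counting error, at 30.8 CPM in B and 26.3 CPM in nonclassical monocyte cells of the CKO library and 23.7 CPM in B and 22.4 CPM in cDC1 cells of the flox library. Its ratio was 1.38 in the T gate (interval 1.24 to 1.54), 1.30 in the B gate (1.03 to 1.66) and 1.26 in the nonclassical monocyte gate (lower bound just above 1), and in the other gates the interval took in 1. In the cDC2 gate it was 0.855 (interval 0.588 to 1.23), from 50 UMIs in CKO and 81 in flox cells.

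Hsp90aa1 (mm10 chr12:110690605-110702728) encodes the inducible form of cytosolic HSP90, and Dnaja1 (chr4:40722150-40737149) an HSP40 of type A. Hsp90aa1 stood at 336 CPM in CKO T-gate cells, above 251 CPM in flox T-gate cells (ratio 1.34, interval 1.28 to 1.40). In the NK gate its ratio was nearly the same, 1.33 (interval 1.18 to 1.48), whereas in the cDC2 gate it was 0.985 (0.892 to 1.09). Dnaja1 was the only member whose interval lay above 1 in all 7 gates, with ratios from 1.13 in classical monocytes to 1.28 in nonclassical monocytes. Its levels ran from 296 CPM in CKO and 248 CPM in flox B cells to 706 CPM in CKO and 566 CPM in flox NK cells. Over all cells of a gate these shifts were small in fold and, with 729 to 9916 UMIs per gate and library, exceeded counting error. Within female cells the Dnaja1 interval took in 1 only in the cDC2 gate, and within male cells in all gates but B and cDC2. In male T-gate cells the ratio was 1.03 for Dnaja1 (interval 0.972 to 1.10) and 1.04 for Hsp90aa1 (0.955 to 1.14).

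Hspa8 (mm10 chr9:40800984-40810087) encodes HSC70, the constitutive cytosolic HSP70, and Hsp90ab1 (chr17:45567775-45573271) the constitutive HSP90. Hspa8 had a ratio between 1.02 in the cDC1 gate and 1.23 in the B gate, and its interval lay above 1 in 6 of 7 gates. Like Hspa1a it was higher in every myeloid gate, at 1419 to 1887 CPM in the CKO and 1289 to 1808 CPM in the flox library, than in any lymphoid gate, at 797 to 1309 CPM in the CKO and 649 to 1165 CPM in the flox library. Hsp90ab1 was highest in the cDC1 gate, at 1584 CPM in CKO and 1388 CPM in flox cells, and lowest in classical monocytes, at 1039 CPM in CKO and 915 CPM in flox cells. Its ratio was 1.16 in the NK gate, 1.14 in the T gate, in both monocyte gates and in the cDC1 gate, and 1.0 in the cDC2 gate (interval 0.957 to 1.05).

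**Figure D4:**
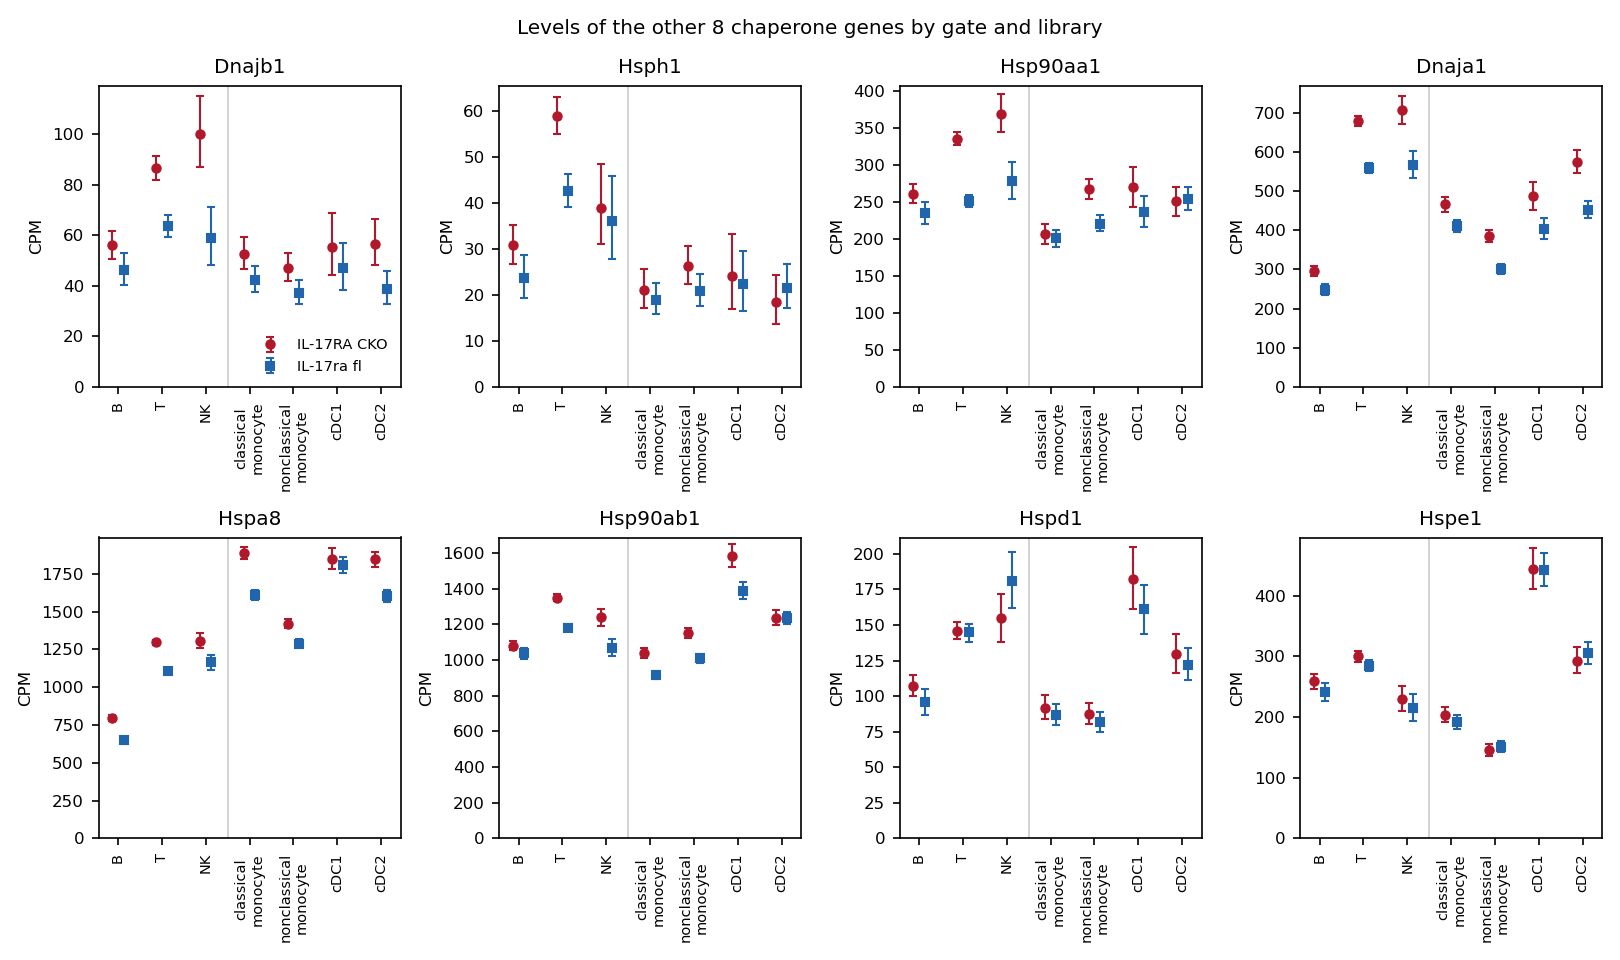
CPM of the other 8 genes in the 7 gates, CKO library left of flox library in each pair, each panel with its own linear axis from 0. Bars are 95% Poisson intervals and the vertical line parts lymphoid from myeloid gates. Hsph1 is highest in T cells and Hspe1 in the cDC1 gate in both libraries.

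Hspd1 and Hspe1 encode HSP60 and HSP10, which together form the folding chamber of the mitochondrial matrix. They are neighbours on chromosome 1 (mm10 chr1:55077835-55088243, minus strand, and chr1:55088132-55091307, plus strand) and lie on opposite strands, with annotated spans that overlap at the starts. The Hspe1 window (RefSeq, GRCm38.p6, chr1:55087898-55088197, plus strand, 5′ to 3′) is shown because it held the densest run of GAA units among the members' windows, with the run in capitals.
Hspe1: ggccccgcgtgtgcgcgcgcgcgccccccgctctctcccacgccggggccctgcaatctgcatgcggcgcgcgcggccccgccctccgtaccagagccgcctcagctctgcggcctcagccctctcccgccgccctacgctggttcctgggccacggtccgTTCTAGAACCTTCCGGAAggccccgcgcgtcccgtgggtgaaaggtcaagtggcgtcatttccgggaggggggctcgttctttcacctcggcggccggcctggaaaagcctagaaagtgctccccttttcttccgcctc
It held 3 overlapping matches of the 2-unit motif, beginning 89, 84 and 79 bases before the start. It also held 2 matches of 3 units in a row (GAANNTTCNNGAA or TTCNNGAANNTTC), and 0.603% of all RefSeq windows hold at least 1 such match. The same run lies in the second RefSeq window of Hspd1. Of the 7 members with a RefSeq window, Hsph1 also had a 3-unit match, Dnaja1 had 1 match of 2 units in the first of its 3 windows, and the 2 windows of Dnajb1 had none.

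The mitochondrial pair was nearly level between the libraries. The ratio of Hspe1 ran from 0.959 in the cDC2 gate to 1.07 in the B gate. In T cells Hspe1 stood at 300.2 CPM in CKO and 285 CPM in flox cells (ratio 1.05, interval 1.01 to 1.10), and this was its only interval above 1. The ratio of Hspd1 ran from 0.856 in the NK gate (interval 0.732 to just under 1) to 1.14 in the cDC1 gate (0.967 to 1.33), and none of its intervals lay above 1. Hspe1 was highest in the cDC1 gate, at 444 CPM in CKO and 443 CPM in flox cells, and lowest in nonclassical monocytes, at 146 CPM in CKO and 151 CPM in flox cells. Hspd1 was also lowest in nonclassical monocytes, at 87.3 CPM in CKO and 81.7 CPM in flox cells. Of the 10 members, 6 had the same highest gate in both libraries. This share was not taken over all genes, so the count is not read as a result about the members.

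The ratios differed between female and male cells. A female cell had an Xist UMI and no Y-linked UMI, and a male cell the reverse. Cells with neither or with both were in neither group. Among T cells, Hspa1b stood at 29.1 CPM in CKO and 11.0 CPM in flox female cells (ratio 2.64, interval 2.04 to 3.44). In male T-gate cells it stood at 37.2 CPM in CKO and 37.1 CPM in flox cells (ratio 1.0, interval 0.766 to 1.32). Within the flox T gate, Hspa1b was 3.37-fold higher in male than in female cells (interval 2.47 to 4.59), and within the CKO T gate 1.28-fold (1.03 to 1.58). Hspa1a in the T gate had a ratio of 2.36 in female (interval 1.52 to 3.71) and 1.42 in male cells (0.877 to 2.41).

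In dendritic cells the pair was higher in male than in female cells of both libraries. In the cDC2 gate Hspa1b stood at 98.7 CPM in male and 41.1 CPM in female CKO cells, and at 121 CPM in male and 58.1 CPM in female flox cells. Its CKO over flox ratio was 0.706 within female cells (interval 0.481 to 1.01) and 0.815 within male cells (0.614 to 1.09). Both lay below 1, although the ratio was 1.24 in all cells of the gate. Cells of neither group enter only the 1.24. Of 257 CKO UMIs of Hspa1b, female cells held 37 and male cells 126. Of 287 flox UMIs, female cells held 166 and male cells 85. These were 54 female and 64 male CKO cells, and 156 female and 34 male flox cells. Hspa1a in the same gate was 1.40 within female (interval 1.07 to 1.81) and 1.49 within male cells (1.15 to 1.95), under the 1.5-fold of a call in both. In classical monocytes the summed pair had a ratio of 1.02 in female (interval 0.842 to 1.22) and 1.92 in male cells (1.52 to 2.45).

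Within female cells 4 of 59 combinations that passed the minimum were called higher, against 2.58% over all genes and the 7 gates. Within male cells 3 of 55 were called higher, against 6.26% of all, and 1 lower, against 5.17%, so the male counts are near or under the share of all genes. With the log2 ratios of both sexes weighted equally, 8 of 65 were called higher, against 4.51% of all, and 5 of them were among the 8 calls from all cells: Hspa1a and Hspa1b in nonclassical monocytes and in the T gate, and Hspa1a in the cDC1 gate. That weighting was chosen after the sexes had been seen to differ in share. Sex marks different animals here, so a difference by sex and one between animals cannot be told apart.

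**Figure D5:**
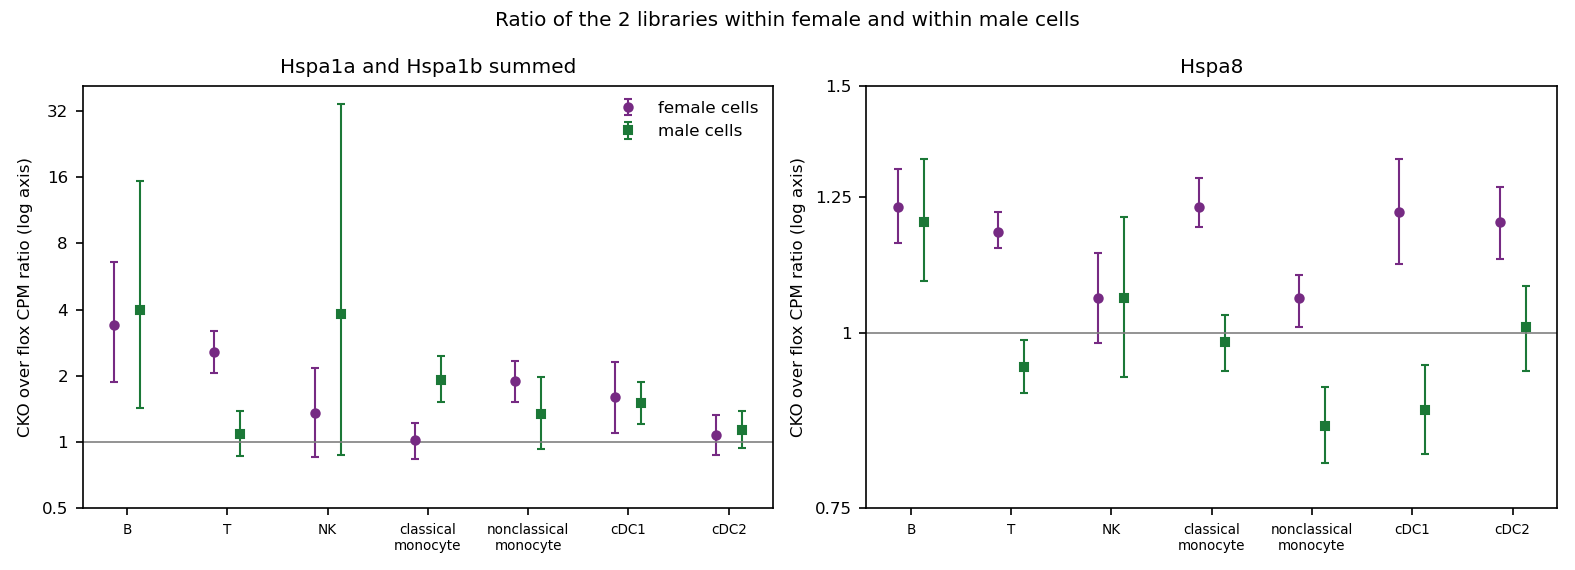
CKO over flox ratio of CPM (log axis) within female cells and within male cells in the 7 gates, for Hspa1a and Hspa1b summed and for Hspa8. Bars are 95% intervals for counting error and the grey line marks 1. In the T gate the summed pair lies well above 1 in female cells and near 1 in male cells, and the female points of Hspa8 lie above the male points in 6 of 7 gates.

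For other chaperone systems, counts are over all combinations of a listed gene and a gate that passed the UMI minimum, and are read against the 1.43% to 3.61% of all genes called higher and 1.71% to 3.81% called lower in a gate. Shares near these are no result about a list. Among 25 partners and co-chaperones of HSP70, HSP90 and HSP40, 0 of 140 combinations were called higher or lower, and the median log2 ratio per gate lay between 0.02 and 0.11. The heat shock factors and their regulators, 4 genes, gave 0 calls in 14 combinations. The cytosolic chaperonin TRiC with prefoldin, 12 genes, gave 0 calls in 84, and 7 mitochondrial chaperones and proteases 0 calls in 40. Among 16 chaperones and stress genes of the endoplasmic reticulum 1 of 104 combinations was called lower, Dnajb9 in the cDC1 gate at 44.8 CPM in CKO and 67.7 CPM in flox cells.

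Immediate early genes, which respond within minutes to stimulation and to tissue digestion, were compared because they share that sensitivity. Of 97 combinations over 14 such genes, 2 were called higher, Egr1 in the NK gate at 91.2 CPM in CKO and 60.1 CPM in flox cells and Jun in the cDC1 gate at 639 CPM in CKO and 393 CPM in flox cells. The 1 lower call was Fosb in the NK gate, at 40.9 CPM in CKO and 70.5 CPM in flox cells. These counts are near the shares of all genes given above. Of the 97 combinations 68 had a ratio above 1, a share not particular to this list. It was 92 of 140 for the partners and co-chaperones, 58 of 84 for TRiC with prefoldin and 27 of 40 for the mitochondrial list. The endoplasmic reticulum list gave 48 of 104 and the heat shock factors 8 of 14. Over all genes that passed the minimum in a gate, 48.3% to 56.7% had a ratio above 1. The shares of the immediate early, partner, TRiC and mitochondrial lists lay above that range. The ratio of Egr1, a transcription factor of this class, lay between 1.28 and 1.52 in the B, T, NK and both monocyte gates, with intervals above 1, and at 1.04 in the cDC1 and 0.991 in the cDC2 gate, where the intervals took in 1. Ier2, another gene of the list and singled out after its values were seen, had ratios of 1.12 to 1.26 with intervals above 1 in all 7 gates. Fosb, of the same list, went the other way in several gates. Its ratio was 0.796 in the B, 0.773 in the T, 0.581 in the NK and 0.912 in the nonclassical monocyte gate, with intervals below 1. In the remaining gates the Fosb intervals took in 1. Summed over the list, the ratio was 1.15 in the cDC1 gate (interval 1.12 to 1.17), 1.04 in the T gate (1.03 to 1.05) and 1.01 in the NK gate (0.981 to 1.03). The summed ratio of the 4 genes Hspa1a, Hspa1b, Dnajb1 and Hsph1 lay between 1.26 in classical monocytes and 1.64 in the cDC1 gate. The part of digestion or sorting in either set of values was not tested.

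Across the 14 profiles of a gate in a library, the genes most like the sum of those 4 genes were Egr1 (Pearson r 0.92 of log2 CPM with 10 added), Btf3 and Dap (both 0.86), and Trerf1 and Vdac1 (both 0.85). Those most like the sum of the other 6 members were Tomm7 and Dap (both 0.91), Eid1 (0.90), and Atp6v1d and Ybx3 (both 0.89). They were picked from 3505 genes with a mean of at least 50 CPM. The profiles share library, depth and overlapping cells, so these values only describe likeness over gates.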

How the data were processed

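Both libraries were prepared with a 3' kit, and the submitters' processing notes name Cell Ranger and the build mm10. Per the file headers, Cell Ranger 7.0.1 made the CKO matrix and version 4 the flox matrix, so counting rules could differ. Whether introns were counted is not given in the sources used here. Deposited values are raw counts of UMIs per gene and barcode. The flox matrix holds 1002803 barcodes, 783281 with a UMI, which leaves the kit version of the labels uncertain, and the CKO matrix 4096, each with 500 UMIs or more. Total UMIs were 35944330 in the CKO and 38623933 in the flox library. Genes with no intron took 3.52% of UMIs in CKO and 3.39% in flox cells.

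Barcodes with at least 1000 UMIs and less than 10% mitochondrial UMIs were kept, and gates required Cd79a of 2 or more UMIs (B), Cd3d and Cd3e of 2 or more together (T), Ncr1 of 1 or more without Cd3d or Cd3e (NK), F13a1 and Chil3 of 3 or more (classical monocyte), and 2 or more of Cd300e and Adgre4 (nonclassical monocyte), Xcr1 and Clec9a (cDC1) or Cd209a and Clec10a (cDC2). Doublets called by Scrublet, 56 in the CKO and 24 in the flox library, were removed only in an alternative. Levels have exact Poisson, ratios conditional binomial and shares Clopper-Pearson intervals at 95%, all for counting error only. The steps were checked on simulated counts. The members and lists were chosen with earlier results of these data known. Other genes were named by a rule: listed genes past 1.5-fold in the most gates (up to 3 per list) and the 5 genes with the most similar profile. Of 32285 gene IDs 32235 matched GENCODE vM21. Python 3.11.15, numpy 2.4.6, scipy 1.17.1, pandas 2.3.3 and scanpy 1.11.5 were used. Alternatives covered the UMI and mitochondrial limits, doublets, gates, scaling, free RNA, thinning, sex and the rule for calls.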

Additional observations from a re-analysis of the deposited data

Results flagged for a closer look

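Barcodes of the flox library with 100 UMIs or fewer, used only as the free-RNA profile of 1 alternative, held RNA of every member, above the 0.934 CPM that 3 counts amount to there. Hspa1a stood at 28.6 CPM and Hspa1b at 24.0 CPM in them, Dnajb1 at 66.3 CPM and Hsph1 at 33.6 CPM. Hsp90aa1 stood at 230.3 CPM, Dnaja1 at 426 CPM, Hspa8 at 1380.5 CPM, Hsp90ab1 at 951 CPM, Hspd1 at 109.9 CPM and Hspe1 at 228 CPM. B-gate cells of the flox library, at 2.88 CPM of Hspa1a and 2.21 CPM of Hspa1b, lay far under the level of these barcodes. The deposited CKO matrix holds only barcodes of 500 UMIs or more, so the same value could not be had for it.

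The library difference had opposite directions in female and male cells for 4 combinations, with both intervals apart from 1. The CKO over flox ratio of Hspa8 was 1.18 in female and 0.946 in male T cells, 1.06 in female and 0.859 in male nonclassical monocytes, and 1.22 in female and 0.882 in male cDC1 cells. That of Hsp90ab1 was 0.874 in female and 1.15 in male cDC2 cells. The difference between the sexes was not tested.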

How the results depend on the processing

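The count of 8 combinations called higher stayed between 8 and 9 under other UMI and mitochondrial limits, doublet removal, single-gate cells, stricter gates, both other scalings, subtracted free RNA and removal of the highest cell, and all 8 were called in each. It was 11 with a gene minimum of 20 UMIs or none, and 6 where the interval had to lie beyond 1.5-fold. It was 4 in female cells, 3 in male cells, 19 at the lower fold threshold tried and 4 at 2-fold. Lower calls stayed at 0 except for 1 in male cells, Hspd1 in the NK gate. With cells thinned to 1000 UMIs it was 1, Hspe1 in nonclassical monocytes. There only 35 of 70 combinations, and 0 of 14 for Hspa1a and Hspa1b, kept 100 UMIs, and the Hspa1b log2 ratio in the cDC1 gate turned to -0.27. The Dnajb1 log2 ratio in the NK gate turned to -0.08 in male cells. The cause was not tested. The count of members with the same highest gate ranged from 4 to 7; scaling by the median ratio and the rules for calls do not enter it. No paired analysis was possible because each group has 1 library and the labels number no replicates. Depth limits the 5 combinations under 100 UMIs, Hspa1a and Hspa1b in B and NK cells and Hsph1 in cDC1 cells. The flox free-RNA profile was subtracted from both libraries.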

Other observations

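Cells outside all 7 gates, 292 in the CKO and 260 in the flox library, also held the chaperone transcripts. Hspa1a stood at 74.3 CPM in CKO and 23.7 CPM in flox cells of this remainder (ratio 3.14, interval 2.28 to 4.38), and Hspa1b at 59.9 CPM in CKO and 29.7 CPM in flox cells (ratio 2.02, interval 1.48 to 2.77). Below 1 lay Hspd1, with a ratio of 0.796 (interval 0.672 to 0.941), Hspe1 of 0.854 (0.754 to 0.967) and Hsp90ab1 of 0.889 (0.839 to 0.941), whereas Hspa8 had a ratio of 1.14 (1.08 to 1.20). Their median depth was 3402 UMIs in CKO and 6439.5 UMIs in flox cells, and which cells make up the remainder in each library was not tested.

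Hspb1, the small heat shock protein HSP27, went the other way in B-gate cells, with 4 UMIs in the CKO and 75 in the flox library. In T-gate cells it had 17 UMIs in the CKO and 3 in the flox library. In each of these gates both counts together are under the minimum of 100 UMIs. How many cells held the UMIs is not given here, and the gene was singled out after its values were seen.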
